A study of Danio rerio with 12 samples.

Results

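The Hox genes of zebrafish larval tail tissue are described here by paralogue group, from all 48 rows of the deposited count table whose gene symbol is hox, a cluster letter from a to d, a number from 1 to 13 and an optional closing letter. These are 48 of 30258 rows, and 41 of them were among the 13978 genes with enough counts to be tested. Hox genes code for homeodomain transcription factors and lie in clusters, each carrying some of the paralogue groups in numerical order. Along the body axis and along a cluster the order is shared, so that low-numbered genes act toward the head and hindbrain and high-numbered genes, the relatives of the fly gene Abdominal-B, act toward the trunk end and tail. In mouse, group 13 genes are known for ending the elongation of the body axis, and in zebrafish and mouse hoxa13 and hoxd13 genes are needed for the distal skeleton of fins and limbs.

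The series compared tails of wild-type larvae after excision with uncut tails, each with SB431542, a kinase inhibitor of the TGF-β type I receptors, or with its vehicle dimethyl sulfoxide (DMSO). In the cut groups the end of the tail was cut off, with the pigment gap as the mark, 72 h after fertilization, and 18 h later, at 90 h, the next 200 µm was taken, while the corresponding region of unoperated larvae was taken at 90 h. SB431542 was at 50 µM and DMSO at 0.1%, from 72 to 90 h, which gives 4 groups of 3 libraries, uncut DMSO (replicates 1, 2 and 4), cut DMSO (1, 3 and 4), uncut SB431542 (2, 3 and 4) and cut SB431542 (2, 3 and 4), and values of a group are listed below in that order of replicates. Each library was a pool of 100 tails. No label says that pools of a group came from separate clutches, so the p-values speak only of how far pools differed, and that spread may be technical in part. The labels do not say whether the region of unoperated tails was matched by distance from the tip or by place along the body, so for genes that mark place, excision and place along the axis cannot be told apart. In such pieces of tissue, fewer cells of a type and less RNA per cell cannot be told apart either.

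Libraries held 7368986 to 12914981 counts, of which 4797 to 7671 fell on Hox rows. Levels are in CPM, the usual unit of counts relative to the total of a library, after trimmed-mean scaling (TMM), and since the reads come from the 3' end of each transcript, a level is not divided by length. One library, uncut SB431542 replicate 4, stood apart in the Hox rows. Its median absolute deviation from the mean of its group's other libraries, over the 41 tested rows, was 0.685 on the log2 scale. Measured likewise, the other 11 libraries had 0.189 to 0.312. Results that rest on uncut SB431542 replicate 4 are given with and without it. A call below is an adjusted p under 0.05 in edgeR's quasi-likelihood test, adjusted by the Benjamini-Hochberg method over the 13978 genes.

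Of the 13 paralogue groups, group 11 had the highest summed level in each of the 12 libraries. Its mean over all libraries was 154 CPM, followed by group 9 at 104, group 10 at 102 and group 3 at 101 CPM. The order of groups 9, 10 and 3 differed between libraries and their ranges overlapped, so these neighbours did not differ beyond their spread. Group 12 at 45.0 and group 13 at 41.0 CPM overlapped each other too, and group 8 reached 29.0 CPM. The remaining groups were lower, with 16.9 CPM for group 6, 15.3 for group 1, 12.1 for group 5, 6.49 for group 7, 3.65 for group 4 and 3.36 for group 2. Groups 9 to 13 together held 66.0% to 75.1% of the Hox total in a library. From group 1 to group 13 in order, the sums joined 4, 2, 4, 3, 4, 4, 1, 3, 5, 4, 5, 3 and 6 rows. A sum thus depends also on the number of rows in its group. As counted, levels did not rise steadily with number, since group 3 lay above groups 12 and 13 in every library. Levels of groups 1, 3, 4, 5 and 6 are uncertain, since gene models overlap there, as described below.

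**Figure D1:**
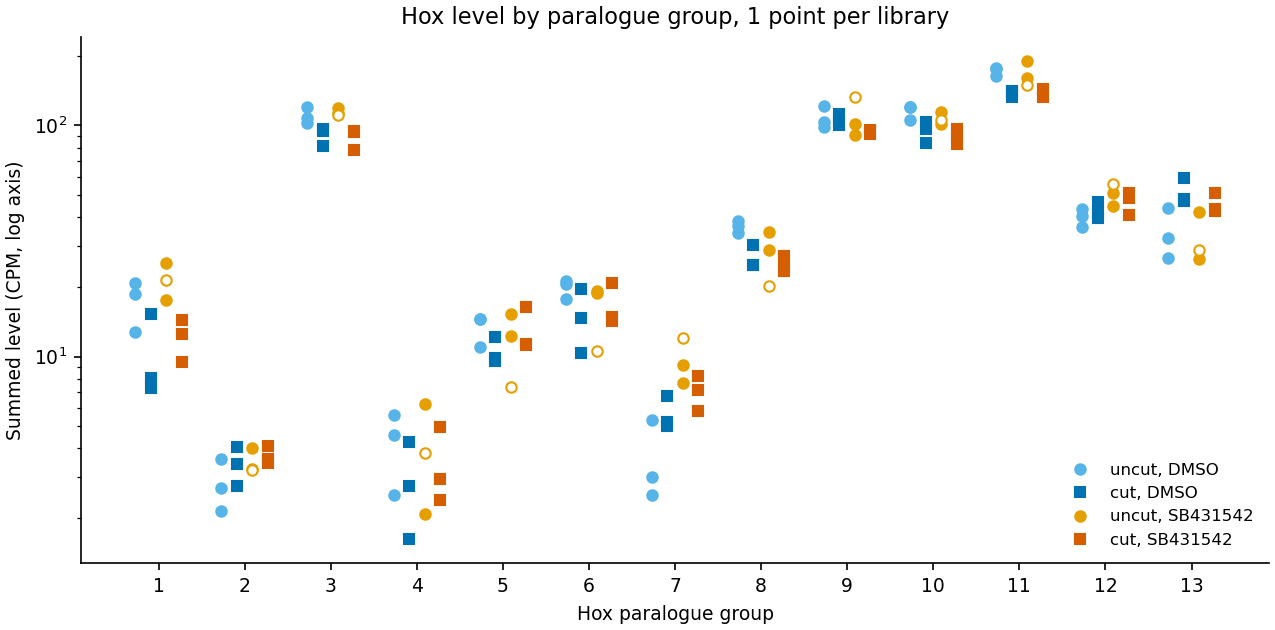
Summed level of each Hox paralogue group in CPM on a log axis, 1 point per library, circles for uncut and squares for cut tails, and an open circle for uncut SB431542 replicate 4. Group 11 is highest, groups 3, 9 and 10 lie close together near 100 CPM, and groups 2 and 4 are lowest.

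A few genes carried most of the level. The 10 highest rows held 62.2% of the Hox counts averaged over libraries, and the first alone, HOXA11 (ENSDARG00000007009), held 15.1%. By the cluster letter of the symbol the level was spread more evenly. Letter C (15 rows) held a mean of 31.1% of the Hox total, A (11 rows) 28.7%, B (15 rows) 24.2% and D (7 rows) 16.0%. A letter can join rows with a closing a and a closing b, such as hoxa9a and hoxa9b, so these shares are not by physical cluster. Symbols are printed as the naming table gives them, so upper case does not mark a human gene. Of the 43 symbols, 5 belong to 2 rows each, HOXA11, HOXB5, HOXC6, HOXC12 and HOXC13, and these rows are told apart by their Ensembl ID, with no statement on which duplicate copy each one is.

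Among the anterior groups, hoxb1b, which in zebrafish helps to set up hindbrain segments, led group 1. It was at 11.2, 5.57 and 14.3 CPM in uncut DMSO, 11.5, 5.52 and 5.03 in cut DMSO, 17.2, 12 and 19.1 in uncut SB431542 and 7.87, 10.3 and 7.51 CPM in cut SB431542. Under SB431542 the cut libraries lay below the uncut ones, and under DMSO the groups overlapped. Group 2 was led by hoxa2b, known in zebrafish for patterning the pharyngeal arches, at 0.714 to 2.71 CPM over the 12 libraries, and its other member, HOXB2, ran from 0.73 to 2.12 CPM. Neither was far above the limit that 3 counts set, 0.244 to 0.444 CPM by library.

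Group 3 held 4 rows at appreciable levels. HOXB3 (ENSDARG00000029263), a gene of hindbrain patterning, was the second most abundant Hox row with a mean of 46.5 CPM. Its values were 47.5, 47.7 and 61.4 in uncut DMSO, 44.0, 50.0 and 35.7 in cut DMSO, 51.8, 60.2 and 47.4 in uncut SB431542 and 38.2, 39.3 and 34.9 CPM in cut SB431542. Cut and uncut libraries overlapped under DMSO and did not overlap under SB431542, where cut tails were lower. The other members averaged 31.2 CPM for HOXA3, 13.1 for hoxc3a and 10.3 for HOXD3. In the RefSeq annotation of another assembly (GRCz12tu), the models of hoxa3a, hoxb3a, hoxc3a, hoxd3a and hoxb1b span other Hox genes, 13 in all, among them hoxb4a, hoxb5a and hoxb6a inside hoxb3a. How the authors' counting shared reads among overlapping genes is not given in the sources used here, so levels of groups 1, 3, 4, 5 and 6 and of HOXC8 and HOXC9 are uncertain. HOXD3 and HOXD4 had fractional counts in 11 libraries whose sum was whole, within 0.002, in 12 of 12, and HOXA3 and HOXA5 had them in 3 libraries with whole sums in 12 of 12.

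The middle groups were led by single genes. HOXD4, a hindbrain gene of the Deformed class, accounted for almost all of group 4 at 1.62 to 6.13 CPM. HOXB5 (ENSDARG00000013057) led group 5 at 4.80 to 7.57 CPM, and HOXC6 (ENSDARG00000101954) led group 6 at 2.83 to 12.6 CPM. HOXB8, which in mouse takes part in patterning the spinal cord, led group 8 with 19.7, 20.0 and 20.1 CPM in uncut DMSO and 17.9, 18.4 and 18.2 in cut DMSO. Under SB431542 it was at 18.8, 22.2 and 18.1 CPM in uncut and 16.3, 13.4 and 16.0 CPM in cut tails. In both treatments every cut library lay below every uncut one with TMM, yet no comparison called the gene. With the library total in place of TMM scaling, cut and uncut libraries of HOXB8 overlapped in both treatments. Group 7 consisted of HOXB7 alone, described with the inhibitor below.

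In the Abdominal-B groups the leading rows were HOXB9 for group 9, HOXC10 for group 10, HOXA11 (ENSDARG00000007009) for group 11, HOXC12 (ENSDARG00000103133) for group 12 and HOXC13 (ENSDARG00000070353) for group 13. HOXB9, which in mouse takes part in patterning the ribs, ran from 30.3 to 46.7 CPM. HOXC12 ran from 21.7 to 35.2 CPM, and its groups overlapped. HOXA11, whose relatives in mouse pattern the sacral spine, the middle segment of the limb and the kidney, was at 115, 110 and 112 CPM in uncut DMSO, 88.3, 86.9 and 87.0 in cut DMSO, 105, 127 and 60.6 in uncut SB431542 and 88.6, 88.7 and 77.0 CPM in cut SB431542. The cut DMSO libraries lay below the uncut ones, and under SB431542 the low value of 60.6 CPM came from replicate 4, the library that stood apart. The averaged log2 fold change for excision was -0.28 ± 0.14 with an adjusted p of 0.236, and its sign turned, to 0.04, with the library total in place of TMM scaling.

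Among the 7 untested rows were hoxb1a with 0 counts in every library, HOXB4 and HOXC4 with 0 to 1, HOXC5 with 0 to 7, hoxb8b with 0 to 9 and HOXC12 (ENSDARG00000070352) with 0 to 4. Of those named here, all but the last belong to groups 1 to 8. In the RefSeq models, hoxb4a lies inside hoxb3a, and hoxc4a and hoxc5a lie inside hoxc3a. Whether reads of these genes were counted for the genes around them was not tested. Within a symbol the levels could differ widely, with a mean of 95.5 CPM for HOXA11 ENSDARG00000007009 against 0.726 CPM for HOXA11 ENSDARG00000104162.

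**Figure D2:**
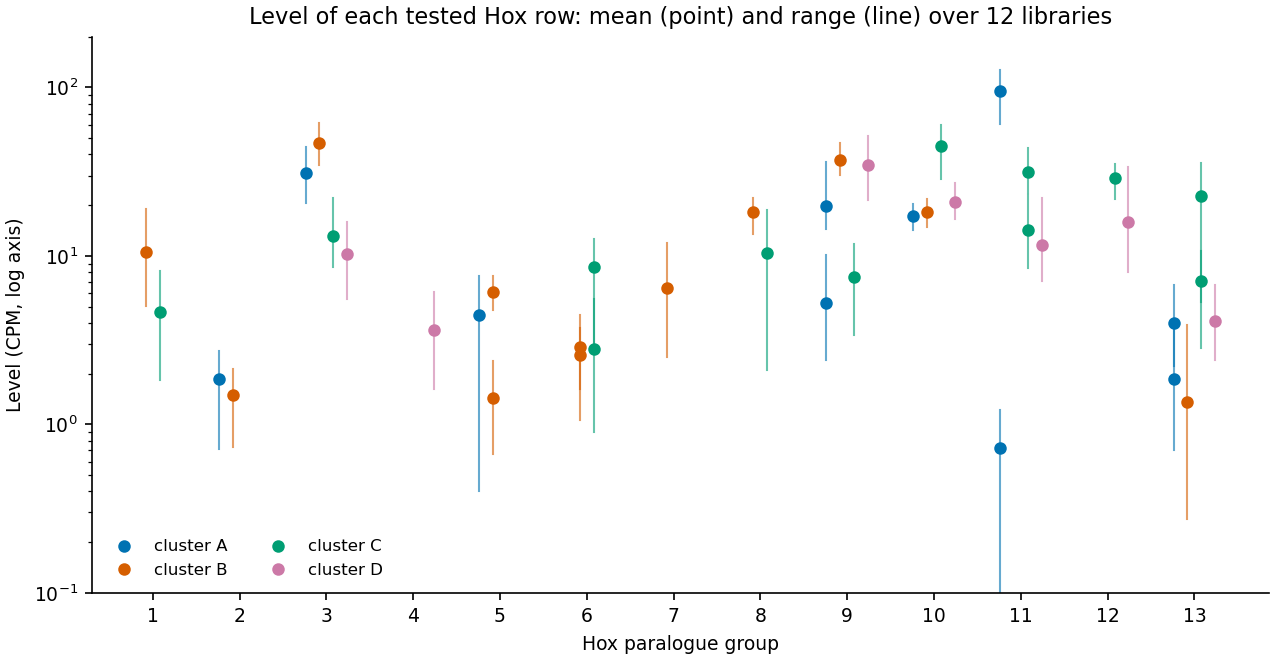
Level of each of the 41 tested Hox rows, in CPM on a log axis, by paralogue group and coloured by the cluster letter of the symbol. Points are means and lines the range over 12 libraries (a line reaching the bottom includes 0). HOXA11 at 95.5 CPM is the highest.

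Excision was compared first under DMSO. There, 780 of all 13978 tested genes were called (5.58%), 510 higher and 270 lower in cut tails (3.65% and 1.93%), and 1 of 41 Hox rows was called. That row was hoxc1a, a group 1 gene of the class of the fly gene labial. It was at 7.44, 7.14 and 6.64 CPM in uncut and 3.65, 2.57 and 1.83 CPM in cut libraries, which did not overlap. The log2 fold change was -1.37 ± 0.40 (SE), a level 2.59-fold lower in cut tails, with an adjusted p of 0.0479 in edgeR's test. This call was lost in 12 of the 20 other settings run, among them edgeR's earlier quasi-likelihood method with an adjusted p of 0.0623. Of the 12 fits that left out 1 library it was lost in 9, those without cut DMSO replicate 1, 3 or 4, uncut DMSO replicate 1, 2 or 4, cut SB431542 replicate 2 or 3, or uncut SB431542 replicate 3, with adjusted p-values from 0.0516 to 0.161. Without uncut SB431542 replicate 4 it was 0.00805.

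Across the family under DMSO, 17 of 41 Hox rows had a log2 fold change above 0 with a median of -0.10, against 51.5% of all tested genes with a median of 0.02. Cut and uncut libraries did not overlap for 6 Hox rows that were higher in cut tails and 7 that were lower, where 15.5% and 13.1% of all tested genes did so. The share of such rows was thus close to the background. Of the rows called in other comparisons, HOXC10 had a log2 fold change of -0.61 ± 0.19 with an adjusted p of 0.0637 under DMSO, and the adjusted p was 0.0319 in a fit without uncut SB431542 replicate 4, a library of another group. That fit tested 14480 genes and called 1432 of them (9.89%), so the set of genes tested and the adjustment changed along with the spread. HOXC8, which in mouse acts in the motor neurons of the forelimb, was at 13.8, 18.7 and 16.6 CPM in uncut and 12.2, 6.09 and 6.12 CPM in cut DMSO libraries. Its log2 fold change under DMSO was -0.99 ± 0.39 with an adjusted p of 0.157, and 0.0149 without uncut SB431542 replicate 4. Under SB431542 HOXC8 was at 9.08, 11.5 and 2.12 CPM in uncut and 10.9, 10.1 and 7.41 in cut libraries. These overlapped with and without the 2.12 CPM, which came from replicate 4, so no direction is read from them. HOXC8 was not called for the interaction of excision and inhibitor either, so a difference between the treatments was not shown.

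Under SB431542, 288 of all tested genes were called between cut and uncut tails (2.06%), 208 higher (1.49%) and 80 lower (0.572%), and none of 41 Hox rows was by edgeR's test. At an unadjusted p under 0.05 there were 7 Hox rows, against 16% of all tested genes, and DESeq2 called 1, HOXD11, against 3.92% of all genes. Here 13 of 41 rows had a log2 fold change above 0, with a median of -0.15, against 50.2% of all tested genes. Without uncut SB431542 replicate 4, 18 of 41 rows were above 0, with a median of -0.11. Libraries did not overlap for 1 Hox row that was higher in cut tails, HOXD3, and 7 that were lower, where 9.69% and 8.95% of all tested genes did so.

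Averaging excision over both treatments called 1673 genes (12%), 956 higher (6.84%) and 717 lower (5.13%). Of the Hox rows 4 were called, and each was lower in cut tails, HOXC10, HOXD11, hoxc1a and HOXA3. The share of Hox rows called lower, 4 of 41, is read against the background of 5.13%. The 6 cut and 6 uncut libraries did not overlap for 2 Hox rows, HOXA3 and HOXD11, both lower in cut tails, and for none that was higher, where 2.02% and 2.83% of all tested genes did so. DESeq2 called 6 Hox rows, these and HOXB3 and hoxb1b, and 14.1% of all genes. Without uncut SB431542 replicate 4 edgeR called 7, the 4 named above, HOXA11 (ENSDARG00000007009) and HOXB3 lower, and HOXC13 (ENSDARG00000113877) higher, where 16.9% of all genes tested in that fit were called. Both counts, 6 and 7 of 41, are close to the share over all genes when the directions are pooled. By direction, DESeq2 called all 6 lower, where 917 of 13974 genes were lower and 1050 higher. Without uncut SB431542 replicate 4, 6 Hox rows were lower and 1 higher, where 1063 of 14480 genes were lower and 1384 higher.

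HOXC10, whose paralogues in mouse suppress ribs in the lumbar region, had the smallest adjusted p of these. Its levels were 58.4, 59.5 and 55.2 CPM in uncut DMSO, 40.2, 28.6 and 44.8 in cut DMSO, 43.0, 54.2 and 48.2 in uncut SB431542 and 36.9, 31.3 and 39.6 CPM in cut SB431542. Within each treatment all 3 cut libraries lay below all 3 uncut ones. The averaged log2 fold change was -0.52 ± 0.13 with an adjusted p of 0.0149. Without cut DMSO replicate 3 the adjusted p was 0.0518, and without cut SB431542 replicate 3 it was 0.0537.

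HOXD11, a posterior gene that in mouse acts with its paralogues in the forelimb and the kidney, showed the same separation. It was at 11.7, 15.1 and 11.4 CPM in uncut DMSO against 9.01, 7.13 and 10.7 in cut DMSO, and at 10.7, 16.1 and 22.2 CPM in uncut SB431542 against 8.35, 7.23 and 10.1 in cut SB431542. Its averaged log2 fold change was -0.72 ± 0.19 with an adjusted p of 0.0193, and -0.57 with an adjusted p of 0.0339 without uncut SB431542 replicate 4, its highest library. The adjusted p rose to 0.061 without cut DMSO replicate 3, 0.056 without uncut DMSO replicate 2 and 0.0628 without cut SB431542 replicate 3.

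For hoxc1a the averaged log2 fold change was -1.02 ± 0.29 with an adjusted p of 0.0252. Under SB431542 its values were 8.14, 5.62 and 2.42 CPM in uncut and 4.60, 3.52 and 1.98 CPM in cut tails, which overlapped, and the lowest uncut value belonged to replicate 4. Without that library the averaged value was -1.22 with an adjusted p of 0.00116. The call was lost without cut DMSO replicate 3 or 4, uncut DMSO replicate 1, cut SB431542 replicate 3 or 4, or uncut SB431542 replicate 2, with adjusted p-values from 0.0523 to 0.0968.

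HOXA3, a gene of pharyngeal arch patterning, was at 34.9, 34.1 and 44.4 CPM in uncut DMSO, 28.2, 27.0 and 26.9 in cut DMSO, 30.5, 34.8 and 35.8 in uncut SB431542 and 28.7, 28.1 and 20.7 CPM in cut SB431542. All 6 cut libraries lay below all 6 uncut ones with TMM, and they overlapped with the library total. The averaged log2 fold change was -0.43 ± 0.13 with an adjusted p of 0.0395, the weakest of the 4. It was 0.0605 with HOXA3 and HOXA5 counted as 1 gene, 0.0784 with no filter on low counts, and the call was lost in 8 of the 12 fits that left out 1 library. These were the fits without cut DMSO replicate 1, 3 or 4, uncut DMSO replicate 1 or 4, cut SB431542 replicate 3 or 4, or uncut SB431542 replicate 3, with adjusted p-values from 0.0542 to 0.119.

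**Figure D3:**
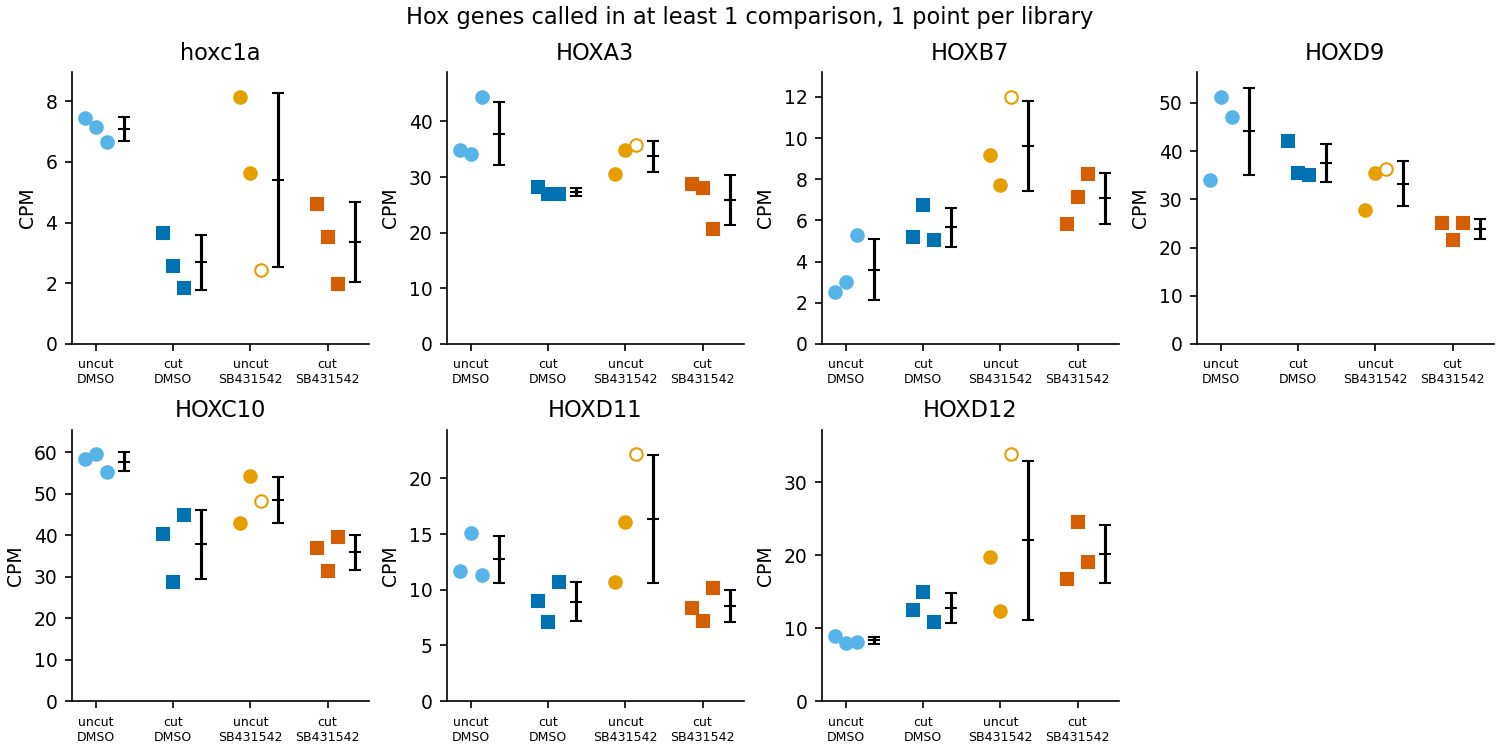
Level in CPM of the 7 Hox genes called in at least 1 comparison, 1 point per library, with black marks for the mean and SD of each group of 3 and an open circle for uncut SB431542 replicate 4. hoxc1a, HOXA3, HOXC10 and HOXD11 are lower in cut tails, HOXB7 and HOXD12 are higher and HOXD9 lower with SB431542.

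Group 13 lay on the other side of 0 from most of the family. All 6 tested rows of group 13 had a log2 fold change above 0 for excision under DMSO, with a median of 0.69, and again averaged over treatments, with a median of 0.57, although none was called. In the averaged comparison 3 of 8 tested rows of groups 1 to 3 were above 0 with a median of -0.28, 2 of 11 of groups 4 to 8 with a median of -0.19, and 4 of 16 of groups 9 to 12 with a median of -0.10. Under DMSO alone 6 of 16 rows of groups 9 to 12 were above 0, with a median of -0.08. Among these, HOXD12 was at 10.9 to 15.0 CPM in cut and 7.99 to 8.90 CPM in uncut DMSO libraries, and its libraries overlapped under SB431542. Under SB431542 alone 4 of 6 group 13 rows were above 0 with a median of 0.32, and 6 of 6 were without uncut SB431542 replicate 4. Without that library groups 9 to 12 moved too, to 7 of 16 rows above 0 averaged over treatments, with a median of -0.11. Under SB431542 alone, 3 of 16 rows of groups 9 to 12 were above 0 with that library and 8 of 16 without it. This contrast between groups was noticed after the values were seen and is given as a description with no test.

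**Figure D4:**
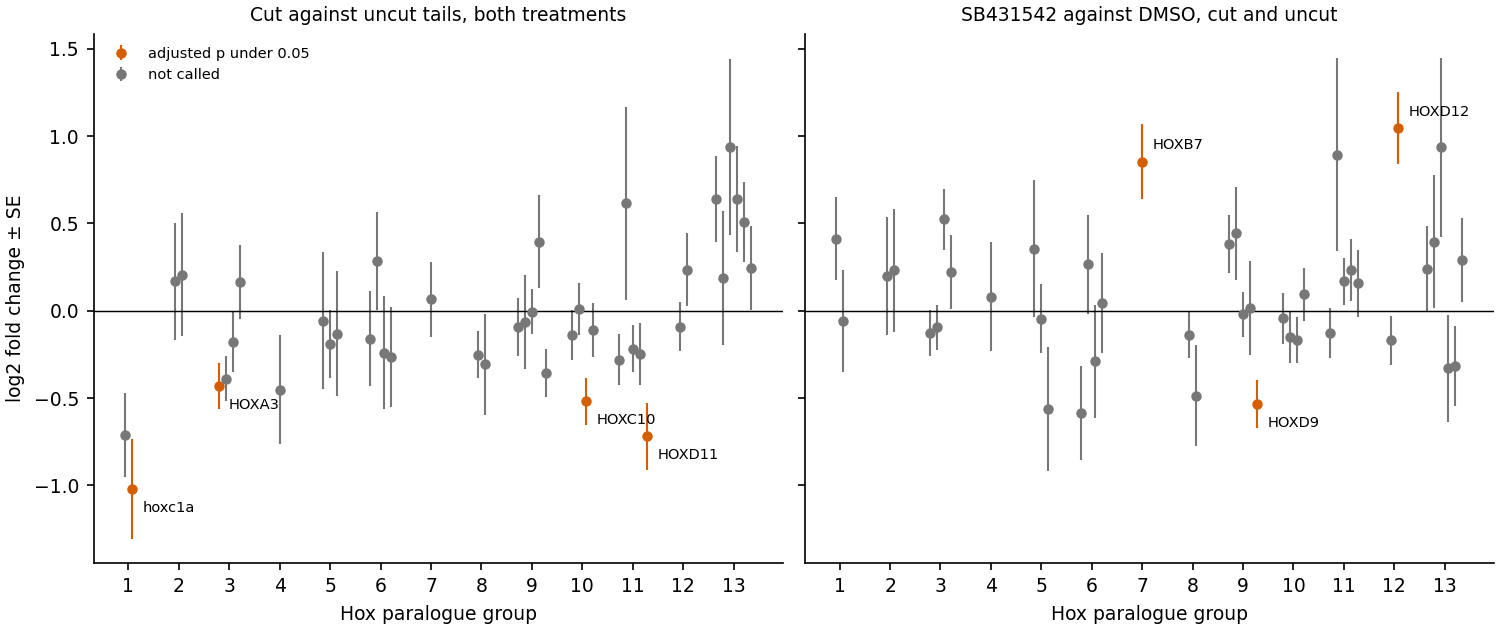
log2 fold change of each of the 41 tested Hox rows, with its SE as a vertical line, by paralogue group, for excision averaged over treatments (left) and for SB431542 averaged over cut and uncut tails (right). Coloured points were called. On the left the 6 points of group 13 all lie above 0, none of them called.

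HOXC13 (ENSDARG00000070353), whose mouse relative is needed for hair and nails, was the most abundant row of group 13. Its levels were 19.4, 29.6 and 13.7 CPM in uncut DMSO, 23.0, 35.8 and 27.7 in cut DMSO, 13.7, 26.6 and 5.34 in uncut SB431542 and 25.7, 31.0 and 19.6 CPM in cut SB431542. The groups overlapped in both treatments, and the averaged log2 fold change was 0.64 ± 0.30 with an adjusted p of 0.211. The other HOXC13 row (ENSDARG00000113877) was at 4.78, 6.14 and 6.55 CPM in uncut and 9.91, 10.7 and 9.96 CPM in cut DMSO libraries, with no overlap. With SB431542 it was at 2.83, 6.36 and 7.96 CPM in uncut and 5.81, 5.23 and 9.08 CPM in cut tails, which overlapped. The estimated counts of this row were fractional in every library, and which other row may share its reads was not tested. Its log2 fold change under DMSO was 0.80 ± 0.31 with an adjusted p of 0.147, and averaged it was 0.51 with an adjusted p of 0.166, or 0.69 with an adjusted p of 0.0385 without uncut SB431542 replicate 4.

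The fin and limb genes of the group were lower in level. In uncut and cut DMSO libraries hoxa13b was at 3.45, 2.43 and 2.21 against 5.60, 4.85 and 4.11 CPM, with a log2 fold change of 0.87 ± 0.35 and an adjusted p of 0.167. For hoxd13a the values were 3.19, 2.86 and 2.41 against 5.52, 3.71 and 5.12 CPM, with 0.79 ± 0.35 and an adjusted p of 0.204. Neither overlapped under DMSO, and both overlapped under SB431542. HOXB13 at 0.274 to 3.87 CPM and hoxa13a at 0.708 to 3.93 CPM overlapped in both treatments. They had few counts, 3 to 33 and 6 to 39 by library, and the lowest HOXB13 value lay at the limit that 3 counts set.

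Because TMM factors were 0.973 to 1.23 in cut and 0.805 to 0.965 in uncut libraries, values were also taken within a library, where no scaling enters. Group 13 held 7.59%, 10.1% and 8.31% of the Hox total in the cut DMSO libraries and 4.86%, 6.25% and 4.02% in the uncut ones. With SB431542 it held 7.29%, 8.48% and 7.62% in cut and 4.05%, 5.96% and 4.36% in uncut tails. The 6 cut libraries all lay above the 6 uncut ones. Group 12 held 6.92% to 7.48% in cut and 5.45% to 6.52% in uncut DMSO libraries, and its shares overlapped with SB431542. The ratio of group 13 to group 11 was 0.307 to 0.450 in cut and 0.162 to 0.250 in uncut libraries, and the ratio of group 13 to group 3 was 0.463 to 0.616 against 0.221 to 0.427. These shares, too, were chosen after the values were seen.

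**Figure D5:**
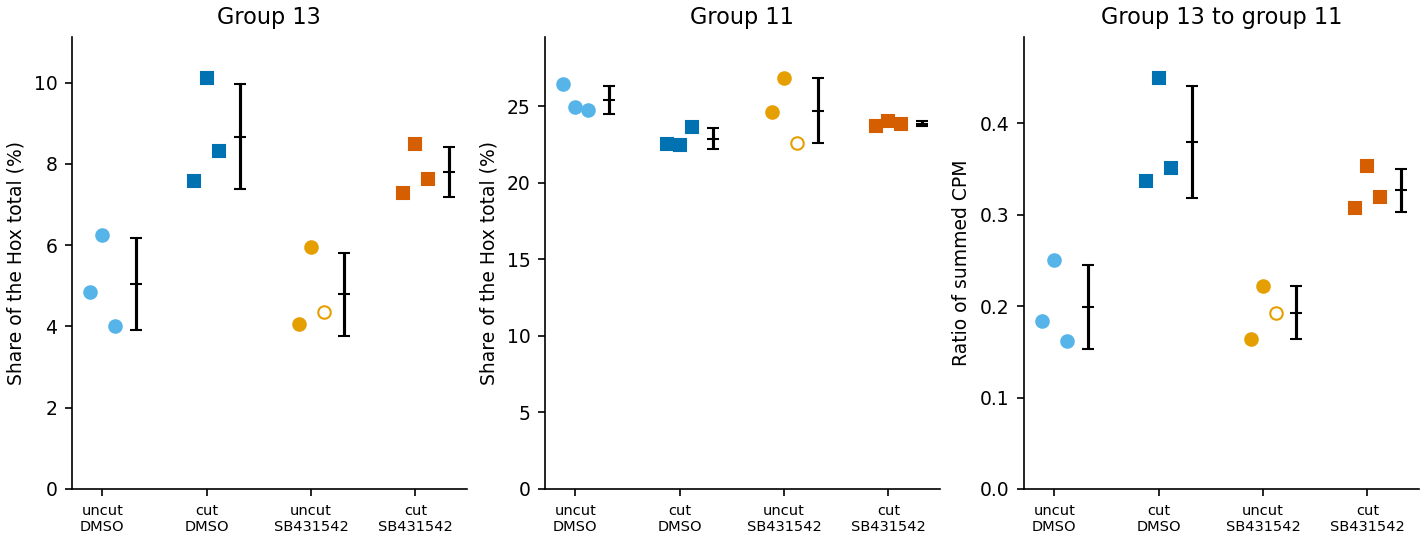
Share of the Hox total held by group 13 and by group 11 in percent, and the ratio of their summed levels, 1 point per library, with black marks for mean and SD of each group of 3. Group 13 shares are 7.29% to 10.1% in cut and 4.02% to 6.25% in uncut libraries.

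The scale decided which end of the family was called. With the library total and no scaling factor, the median of all tested genes for excision averaged over treatments moved to 0.34 on the log2 scale, and 3 Hox rows were called, each higher, hoxa13b and both HOXC13 rows, with adjusted p-values of 0.0110, 0.0453 (ENSDARG00000070353) and 0.0125 (ENSDARG00000113877), where 24.1% of all tested genes were called. Under DMSO alone the calls on that scale were hoxa13b, hoxd13a and HOXC13 (ENSDARG00000113877), each higher, where 14% of all tested genes were called. On that scale HOXC10, HOXD11, hoxc1a and HOXA3 stayed below 0 at -0.21, -0.41, -0.70 and -0.10 and were not called. Relative to the median of all genes they were at -0.54, -0.74, -1.03 and -0.44, and all 6 group 13 rows were at 0.18 to 0.93. With the library total, cut and uncut libraries of HOXA3, HOXC10 and HOXD11 overlapped in both treatments. Those of HOXB3 and hoxb1b under SB431542 overlapped as well. The summed level of the family was 560 to 623 CPM in cut and 652 to 710 CPM in uncut libraries with TMM, but 561 to 738 against 535 to 641 CPM with the library total, where the ranges overlap. Group 11 was likewise lower in all cut libraries with TMM, 132 to 144 against 150 to 191 CPM, and overlapped with the library total, 133 to 177 against 132 to 172 CPM. The same held for group 3, at 78.3 to 96.5 against 103 to 121 CPM with TMM. With the library total it overlapped, 79.0 to 117 against 91.3 to 110 CPM. Group 13 was 42.7 to 59.5 against 26.4 to 43.8 CPM with TMM, which overlap, and 46.2 to 69.9 against 21.5 to 39.0 CPM with the library total, which do not.

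Levels of marker genes for several cell types differed between cut and uncut tails as well. Summed levels of the skeletal muscle markers (16 rows) were 118571 to 169801 CPM in cut and 201848 to 243145 CPM in uncut libraries, and notochord markers (18 rows, 1 of them at 0 in every library) were 1754 to 2093 against 3145 to 4968 CPM. Leukocyte markers (22 rows) were higher, 1181 to 2278 against 655 to 1070 CPM. Spinal cord markers (24 rows) were 1260 to 1386 against 1568 to 2045 CPM, and epidermis markers (15 rows) 9248 to 13608 against 14070 to 23275 CPM, but both overlapped with the library total in place of TMM. Fin fold markers (21 rows) and kidney markers (17 rows, 1 at 0 in every library) overlapped. By gene, 12 of 16 tested muscle rows, 9 of 15 notochord rows and 9 of 21 spinal cord rows were called lower, and 13 of 16 leukocyte rows higher, averaged over treatments, against 5.13% of all tested genes lower and 6.84% higher. The part of these differences in the Hox results was not tested.

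SB431542 was compared with DMSO in cut and in uncut tails. In cut tails 40 genes were called (0.286%), 0.179% higher and 0.107% lower, and in uncut tails 11 (0.0787%), 0.0644% higher and 0.0143% lower, and no Hox row was called in either by edgeR's test. At an unadjusted p under 0.05 there were 4 and 7 Hox rows, against 15.3% and 16.5% of all tested genes. DESeq2 called HOXD9 in cut tails and HOXB7, hoxc3a and HOXD12 in uncut tails. Of the genes to which it gave an adjusted p, it called 3.24% of 10180 and 2.33% of 13974. Libraries did not overlap for 3 Hox rows that were higher and 4 that were lower with the inhibitor in cut tails (background 12.6% and 11.5%), and for 4 and 3 in uncut tails (9.48% and 8.43%). Averaged over cut and uncut tails, 1003 genes were called (7.18%), 677 higher (4.84%) and 326 lower (2.33%). Among Hox rows 2 were higher, HOXD12 and HOXB7, and 1 was lower, HOXD9. Over the family 23 of 41 rows had a log2 fold change above 0, with a median of 0.08, against 50.4% of all tested genes. With both kinds of tail together, no Hox row was free of overlap between inhibitor and vehicle, where 1.57% of all tested genes were higher and 0.844% lower without overlap.

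HOXD12, a posterior gene of the limb and fin programme, had the largest change of the called Hox rows with the inhibitor. It was at 8.90, 7.99 and 8.09 CPM in uncut DMSO and 19.8, 12.4 and 33.9 CPM in uncut SB431542, and at 12.5, 15.0 and 10.9 CPM in cut DMSO and 16.8, 24.6 and 19.1 CPM in cut SB431542. In cut and in uncut tails every inhibitor library lay above every vehicle library. The averaged log2 fold change was 1.05 ± 0.21, a level 2.06-fold higher, with an adjusted p of 0.00766. The highest value, 33.9 CPM, came from uncut SB431542 replicate 4, and without it the log2 fold change was 0.81 with an adjusted p of 0.00692. It was called in all 20 other settings run.

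HOXB7, the only group 7 row, was at 2.52, 3.00 and 5.30 CPM in uncut DMSO and 9.20, 7.70 and 12 CPM in uncut SB431542, with no overlap. In cut tails it was at 5.20, 6.75 and 5.03 CPM with DMSO and 5.81, 7.14 and 8.24 CPM with SB431542, which overlapped. The averaged log2 fold change was 0.85 ± 0.22 with an adjusted p of 0.0258. The call was lost without cut DMSO replicate 4, uncut DMSO replicate 1 or 2, or cut SB431542 replicate 3 or 4, with adjusted p-values from 0.059 to 0.0731. The interaction of excision and inhibitor for this gene was -1.05 ± 0.43 with an adjusted p of 0.910, so a difference between cut and uncut tails was not shown.

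HOXD9, a gene that in mouse acts in the limb and the spinal cord, was lower with the inhibitor. It was at 42.1, 35.5 and 35.0 CPM in cut DMSO and 25.0, 21.5 and 25.1 CPM in cut SB431542, with no overlap, and at 34.0, 51.3 and 47.1 against 27.8, 35.5 and 36.3 CPM in uncut tails, which overlapped. The averaged log2 fold change was -0.53 ± 0.14 with an adjusted p of 0.0277. This call was lost in 6 of the 12 fits that left out 1 library, those without cut DMSO replicate 1 or 4, uncut DMSO replicate 2 or 4, cut SB431542 replicate 3 or uncut SB431542 replicate 2, with adjusted p-values from 0.0503 to 0.0858. With no scaling factor it was 0.0558.

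On the same cluster, HOXD12 and HOXD9 thus moved in opposite directions with the inhibitor, while HOXD10 and HOXD11 between them were not called. Group 13 showed no common direction with the inhibitor, with 4 of 6 rows above 0 averaged and 3 of 6 in cut tails.

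No gene of the whole table was called for the interaction of excision and SB431542 by edgeR's test (0%), and so no Hox row was. At an unadjusted p under 0.05 there were 706 genes over the table (5.05%) and 4 Hox rows, and DESeq2 called 2 genes and no Hox row. Values for excision under the 2 treatments therefore stand side by side without a difference shown between them. The comparisons share libraries, since the uncut DMSO libraries enter both excision under DMSO and the inhibitor in uncut tails.

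Genes that act with or upstream of Hox genes are read against the background of averaged excision, in which 6.84% of all tested genes were called higher and 5.13% lower, with a median of 0.01. Of 9 tested Hox cofactors of the Pbx, Meis and Pknox families, 2 were lower in cut tails averaged over treatments, with a list median of -0.19. PBX3 was at 80.6 ± 4.1 CPM in uncut and 55.6 ± 3.8 in cut DMSO libraries (SD, n = 3), and its averaged log2 fold change was -0.59 with an adjusted p of 0.00309 in edgeR's test. The second, meis2b, was at 11.9 and 7.22 CPM with -0.64 and an adjusted p of 0.0216. Both calls are on the TMM scale. The summed level of the cofactors (12 rows) was 322 to 354 CPM in cut and 365 to 422 CPM in uncut libraries with TMM. With the library total the ranges overlapped, 332 to 426 against 319 to 381 CPM. Of 8 tested caudal and tail-bud regulators 1 was higher, LIN28A, an RNA-binding protein of early developmental stages, at 4.17 and 9.93 CPM under DMSO, 2.30-fold higher averaged over treatments with an adjusted p of 0.0132.

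Of 20 tested genes of retinoic acid metabolism and reception, the signal that sets anterior Hox limits in the embryo, 2 were higher in cut tails averaged over treatments, with a list median of 0.02, against 6.84% of all tested genes called higher. CRABP1, a retinoic acid binding protein, was at 19.5 and 35.1 CPM under DMSO with an averaged log2 fold change of 0.84 and an adjusted p of 0.000654. CYP26B1, which degrades retinoic acid, was at 7.98 and 10.6 CPM under DMSO and 6.86 and 14.2 CPM under SB431542, with 0.74 and an adjusted p of 0.00961. With the inhibitor averaged over tails, RBP4, the retinol carrier of blood plasma, was higher at a log2 fold change of 0.48 with an adjusted p of 0.0151.

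Of 25 tested Polycomb and trithorax regulators, which hold Hox genes silent or active, 1 was higher in cut tails averaged over treatments, cbx7a, a subunit of Polycomb complex PRC1, with a list median of -0.06, against the same 6.84%. Its level was 22.3 ± 6.5 CPM in uncut and 139 ± 40 CPM in cut DMSO libraries (SD, n = 3), 6.15-fold higher, and 26.2 against 96.5 CPM under SB431542, with an adjusted p of 7.78e-07 averaged over treatments. With the inhibitor PCGF1 and cbx2, 2 other PRC1 members, were higher at log2 fold changes of 1.18 and 1.05 with adjusted p-values of 0.0419 and 0.0497, where 4.84% of all tested genes were called higher. Other members of these lists were not called in the averaged comparisons.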

How the data were processed

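Estimated counts per Ensembl gene, deposited by the authors with no normalization, were analysed. Libraries were made with a kit that reads the 3' ends of polyadenylated RNA, per the labels' protocols, and the submitters' processing notes name the build GRCz11. Which aligner and counter made them is not given in the sources used here. A deposited normalized table was not used.

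After rounding to whole numbers, counts entered edgeR 4.0.16 (R 4.3.3) and its quasi-likelihood test, with TMM scaling, the filter filterByExpr, robust estimates and 1 fit of 4 group means over 12 libraries. Two-sided p-values were adjusted after Benjamini and Hochberg over 13978 genes in each of 7 comparisons. Levels are TMM-scaled CPM. The script was tested on simulated data.

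The members and lists were chosen with earlier results of these data known. edgeR's earlier quasi-likelihood method was run first, and the current one was kept after both sets of Hox results had been seen, because it gives the calls of an earlier processing of the whole table. It adds 1 Hox call, hoxc1a under DMSO.

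Genes named with values were those called in any comparison, the most abundant row of each paralogue group and up to 4 called members of each list. Named outside that rule, after their values were seen, were HOXB2, HOXD3, hoxc3a, HOXD10, HOXC8, HOXC9, HOXA5 and the group 13 rows. Of 204 list entries, 138 matched a whole symbol, 54 a symbol without its closing letter and 12 none. Alternatives were RLE scaling, no scaling factor, no or other count filters, DESeq2 1.42.0, the replicate number as a block, merged read-sharing pairs, the earlier method and leaving out each library. Sequences were not used here, and 1 untested Hox row is not reported here.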

Additional observations from a re-analysis of the deposited data

How the results depend on the processing

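Hox calls were few and several depended on single libraries, while the share of all tested genes called moved between fits as well. Under DMSO the count for excision was 1, and it was 2 with DESeq2, 0 with the earlier quasi-likelihood method, 3 with no scaling factor and 0 to 3 over the fits that left out 1 library. The share of all tested genes called was, in that order, 5.58%, 7.72%, 5.04%, 14% and 2.22% to 9.89%. Under SB431542 the count was 0, with 1 by DESeq2 and 0 to 1 over leave-outs. There 2.06%, 3.92% and 0.826% to 2.76% of all tested genes were called. For the inhibitor in cut tails the count was 0 and 1 with DESeq2, and in uncut tails 0, 2 with no filter on low counts, 3 with DESeq2 and 0 to 3 over leave-outs. In cut tails 0.286% of all tested genes were called, and with DESeq2 3.24% of the 10180 genes to which it gave an adjusted p. In uncut tails the share was 0.0787%, 0.474% with no filter, 2.33% with DESeq2 and 0% to 4.59% over leave-outs. Averaged excision gave 4, with 0 to 7 over leave-outs, the 0 without cut DMSO replicate 3 or cut SB431542 replicate 3 and the 7 without uncut SB431542 replicate 4. Of all tested genes, the main fit called 12%, and these leave-outs called 7.83%, 8.17% and 16.9% in turn. The averaged inhibitor gave 3, with 1 to 4 over leave-outs. Its main fit called 7.18% of all tested genes, and the fit without cut DMSO replicate 4, with 1 Hox call, 2.33%. The interaction gave 0 in all settings run. The settings merged pairs, no scaling factor and the earlier method were chosen after the data were seen.

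In the labels, same-numbered libraries shared a replicate number. Their deviations from group means correlated at -0.05 to 0.34 over 13 pairs, with a median of 0.04 and 4 of them over 0.1. Pairs with different numbers correlated at -0.28 to 0.18 over 41 pairs, with a median of -0.02 and 5 of them over 0.1. The highest value, 0.34, was that of cut and uncut SB431542 replicate 4, and 5 of 12 libraries correlated best with their own number. With the replicate number as a block, averaged excision called 3 Hox rows, without HOXA3 (adjusted p 0.0603), and the averaged inhibitor 1, HOXD12, without HOXB7 (0.0589) and HOXD9 (0.0511). Excision under DMSO called 0, with hoxc1a at 0.0533. With the block, 10.3%, 6.32% and 4.4% of all tested genes were called in these comparisons, in that order.

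Rank of the paralogue groups by mean level was the same with TMM, RLE and the library total. A scaling factor multiplies all groups of a library alike, so the order within a library could not change. Without its most abundant row, the summed level was 4.72 CPM for group 1, 1.497 for group 2, 54.5 for group 3, 0.0178 for group 4, 5.9996 for group 5, 8.28 for group 6, 10.8 for group 8, 67.2 for group 9, 56.6 for group 10, 58.3 for group 11, 15.9 for group 12 and 18.4 CPM for group 13, and group 7 has a single row. None of the called Hox changes reversed in direction in the settings run.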
